A study of Mus musculus with 9 samples.

Results

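Glioma stem cells cultured from mouse optic gliomas were compared with neural stem cells (NSC) of the third ventricle (TVZ) from which Nf1 had been removed in culture. The 6 arrays are the 3 labelled as glioma stem cells and the 3 labelled as TVZ NSC given Cre virus, out of 9 in the series. All groups are labelled C57BL/6. Glioma stem cells came from the optic nerve of 3-month-old mice labelled Nf1+/-GFAP CKO, a name for mice heterozygous for Nf1 with a conditional knockout of the other copy driven by GFAP, a promoter active in astrocytes and in neural progenitors. The Nf1-null NSC came from the brains of postnatal day 1 pups labelled Nf1flox/flox and received Cre virus, and the wild-type NSC, from pups of that genotype and age, received a control LacZ virus. All 3 groups were grown in low-attachment dishes with N2 and B27 supplements and the mitogens EGF and FGF, each at 20 ng/ml, and 100 ng of total RNA went into each biotinylated cRNA.

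The glioma stem cells therefore differ from the Nf1-null NSC in tumour origin, tissue, age, Nf1 dosage in the host and exposure to virus at once, and these cannot be told apart. The series text speaks of independent cultures for the neural stem cells. No label says whether the 3 glioma arrays are separate tumours, so the p-values measure only the spread between these samples. In cultures measured in bulk, fewer cells of a type and less RNA per cell cannot be told apart.

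Nf1 encodes neurofibromin, a GTPase-activating protein that switches Ras off, and its loss in the glial lineage gives rise to optic pathway glioma in people with neurofibromatosis type 1 and in mouse models. Cells that form floating spheres in FGF and EGF include neural stem cells and glial progenitors, which can form astrocytes, oligodendrocytes and neurons. Regional patterning genes such as Otx2 and the Hox clusters record where along the neural axis such cells arose and often keep their state in culture.

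Signals are the deposited linear array intensities, on a scale where the trimmed mean of each array is 1500 and the median lies between 264.7 and 287.4. Differences are in log2(signal + 1), glioma stem cells minus Nf1-null NSC, for the brightest probe set of each of 18193 genes. The test is limma's moderated test with Benjamini-Hochberg adjustment over all 18193 genes at an adjusted p under 0.05. A signal is a hybridisation brightness and is not compared between genes. Nf1 itself gave 430.3, 645.8 and 577.0 on the Nf1-null arrays and 622.6, 600.1 and 548.9 on the glioma arrays, against 919.5 to 1139.5 in wild-type NSC. Both groups overlapped (log2 difference 0.12 ± 0.19 SE, limma adjusted p = 0.810). The other probe sets of Nf1 differed from each other in direction. One gave 38.4, 25.2 and 99.7 on the Nf1-null arrays against 146.6, 206.2 and 185.1 on the glioma arrays, with wild-type NSC at 101.1 to 175.4, so that glioma and wild-type arrays overlapped and the Nf1-null arrays lay below both (log2 difference 1.92, limma unadjusted p = 0.00435). Another overlapped, at 42.0, 9.6 and 103.9 against 5.5, 39.4 and 16.6 (-1.12, limma unadjusted p = 0.306). Which of them report on the deleted exons is not known here.

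Among the quality values, the 3'/5' signal ratio of Actb, a sign of RNA integrity, was 1.49, 1.67 and 1.66 on the Nf1-null arrays and 1.73, 1.85 and 1.77 on the glioma arrays, so it separated the groups, and its part in the results was not tested. That of Gapdh overlapped, at 0.93 to 0.96 against 0.95 to 1.14. Over the brighter genes, glioma arrays 2 and 3 correlated at 0.989, whereas glioma array 1 reached 0.95 and 0.944 with them and 0.944 with Nf1-null array 1. The Y-linked gene Eif2s3y, singled out after its values were seen, gave 2399.5, 73.2 and 4002.4 on glioma arrays 1, 2 and 3 and 4457.3 to 8908.7 in Nf1-null NSC. Y-linked signal therefore differed between arrays, and this was not adjusted for.

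Of 18193 genes, 122 were higher in glioma stem cells (0.671% of all genes tested) and 197 were lower (1.08%). The median fold was 4.06 among the higher and 4.49 among the lower genes. Changes above 16-fold were seen for 5 higher and 18 lower genes. The 3 glioma arrays lay wholly above the 3 Nf1-null arrays for 1681 genes (9.24% of all) and wholly below for 2303 (12.7%), and all 319 called genes were among these. Before adjustment, 2995 genes had a p under 0.05. Over all genes the median log2 difference was -0.04 and 46.8% of differences were positive, and each gene list below is set against these values.

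Array by array, the called genes were least extreme on glioma array 1. They were chosen by the test on these same arrays and their groups do not overlap. That they stand apart on all 3 glioma arrays therefore follows from the choice, and the distances below are a description. Over the 122 higher genes, the median log2 distance from the Nf1-null mean was 1.71, 2.28 and 2.29 on glioma arrays 1, 2 and 3, and 0.37 to 0.53 on the wild-type arrays. For the 197 lower genes it was -1.93, -2.30 and -2.12, and -0.19 to -0.07 in wild-type NSC. Glioma array 1 was the closest of the 3 to the Nf1-null mean for 94 higher and 112 lower genes. The number of calls moved with single arrays. Without glioma array 1 it rose to 721, without array 2 or 3 it was 74 or 77, without 1 of the Nf1-null arrays it was 72 to 105, and without 1 of the wild-type arrays, which only add to the estimate of spread, it was 118 to 155. When the 6 compared arrays were fitted alone, 29 genes were called (7 higher, 22 lower), 26 of them among the 319. Of the 84 called genes named here, 13 passed in that fit, which ended the calls of the other 71. An ordinary linear model without moderated spread kept 34 of the 84, and averaging all probe sets of a gene in place of the brightest kept 48. With the replicate number as a block 193 genes were called, and 46 of the 84 passed. Every one of the 319 kept its direction in all 21 alternative analyses that tested it. Most of these could not change it. The groups did not overlap for these genes, so leaving out an array could not reverse a direction. Array weights move a group mean only within the range of its arrays, so they could not either. Other settings alter only the spread or the filter, which leaves rescaling, the pseudocount and probe set averaging as those that could have done so.

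**Figure D1:**
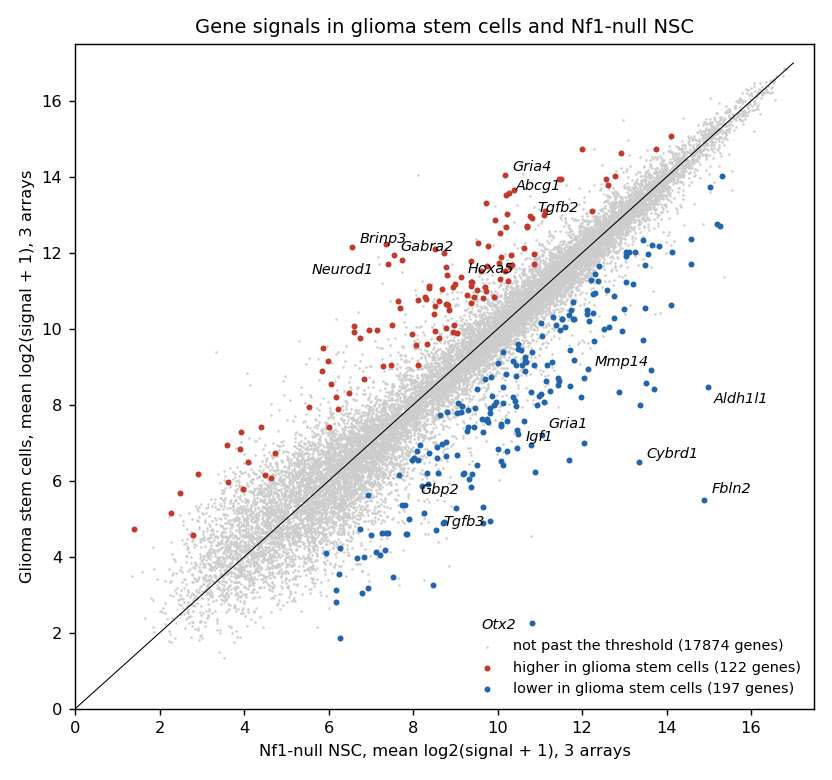
Mean log2(signal + 1) of each of 18193 genes in Nf1-null NSC (x axis) and in glioma stem cells (y axis), 3 arrays each. Points in red are the 122 genes higher and in blue the 197 genes lower in glioma stem cells by limma at an adjusted p under 0.05, and the line marks equal signal. The farthest points from the line are Fbln2 and Otx2 below it.

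The 15 largest falls and 15 largest rises were taken among called genes with a mean signal of at least 1000 in the higher group. Their start-side sequences are shown for the pair at the head of each set, as the DNA next to the genes with the widest contrast. They are the 250 bases before the most upstream listed start in RefSeq (GRCm38.p6), with matches to the E-box letters CANNTG, the kind of site that bHLH factors such as Neurod1 bind, in capitals.
Fbln2, chr6:91212514-91212763, plus strand: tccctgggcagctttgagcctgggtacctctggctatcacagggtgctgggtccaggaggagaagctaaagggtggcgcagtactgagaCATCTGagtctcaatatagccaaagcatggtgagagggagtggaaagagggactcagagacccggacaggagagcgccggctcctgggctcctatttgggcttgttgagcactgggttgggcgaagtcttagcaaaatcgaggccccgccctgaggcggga
Otx2, chr14:48667645-48667894, minus strand: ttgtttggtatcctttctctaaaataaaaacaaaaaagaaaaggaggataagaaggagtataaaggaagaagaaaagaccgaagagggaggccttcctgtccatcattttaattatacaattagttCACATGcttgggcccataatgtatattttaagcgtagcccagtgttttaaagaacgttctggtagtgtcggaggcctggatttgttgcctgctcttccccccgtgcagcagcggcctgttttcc
Brinp3, chr1:146495379-146495628, plus strand: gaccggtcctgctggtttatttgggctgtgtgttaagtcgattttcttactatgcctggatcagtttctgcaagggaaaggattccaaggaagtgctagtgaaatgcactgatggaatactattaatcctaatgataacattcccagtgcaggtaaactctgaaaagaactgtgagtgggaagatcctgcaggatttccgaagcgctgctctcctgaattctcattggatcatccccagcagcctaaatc
St6gal2, chr17:55445132-55445381, plus strand: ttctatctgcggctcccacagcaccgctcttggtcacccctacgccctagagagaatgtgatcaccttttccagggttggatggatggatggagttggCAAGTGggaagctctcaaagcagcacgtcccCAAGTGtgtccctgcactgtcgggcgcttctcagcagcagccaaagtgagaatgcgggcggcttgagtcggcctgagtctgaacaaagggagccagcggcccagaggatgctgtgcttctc
The E-box letters occurred 1 time in Fbln2, 1 time in Otx2, 2 times in St6gal2 and 0 times in Brinp3, while 66.1% of 27025 RefSeq promoters of that length hold at least 1. The letters TATAAA were found in the window of Otx2, as in 13.0% of promoters, and ACAAT, a core of Sox sites, likewise in Otx2 (28.2% of promoters). TTGGC, searched as the letters of NFI half-sites, occurred 2 times in St6gal2, with 1 match in Fbln2 (41.9% of promoters). TGANTCA, the AP-1 letters, was in none of these 4 windows (6.90% of promoters). Both strands were searched, a match is a description of letters only, and Otx2 and Brinp3 have other listed starts (4 and 3 in all).

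The deepest loss was of Fbln2, which encodes fibulin-2, a glycoprotein of the extracellular matrix. Its signals were 26285.0, 36383.1 and 29166.1 on the Nf1-null arrays, 7657.9 to 16402.9 in wild-type NSC, and 290.2, 14.1 and 19.6 on the glioma arrays. All glioma arrays lay below all neural stem cell arrays (log2 difference -9.40 ± 1.02 SE, limma adjusted p = 0.0116). With a pseudocount of 16 in place of 1 the log2 difference was -8.78. Otx2, a homeodomain factor of forebrain and midbrain, gave 984.7, 2886.9 and 2031.7 on the Nf1-null arrays and 6.9, 2.5 and 2.9 on the glioma arrays. The glioma signals were all in single digits, whereas wild-type NSC had 637.1 to 1837.0 (log2 difference -8.56 ± 0.57 SE, limma adjusted p = 0.00374). Against signals this low the size of the difference depends on the pseudocount: with 16 it was -6.50 for Otx2, not as deep as the -6.60 of Cybrd1 in that setting, and Otx2 still passed.

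Aldh1l1 encodes a folate-metabolising dehydrogenase widely used to mark astrocytes. It read 31920.6, 25833.2 and 40852.5 on the Nf1-null arrays, 32418.4 to 43185.6 in wild-type NSC, and 660.4, 282.7 and 239.5 on the glioma arrays. The neural stem cell groups overlapped with each other and the glioma arrays lay far below both (log2 difference -6.50 ± 0.39 SE, limma adjusted p = 0.00241, the smallest of all genes, shared with Gbp2). Cybrd1, a ferric reductase, went from 15615.5, 7000.0 and 10513.2 to 161.2, 112.9 and 39.8 (log2 difference -6.85, limma adjusted p = 0.00534). Car8, a member of the carbonic anhydrase family that lacks the enzyme activity, went from 6974.4, 11687.4 and 14614.5 to 212.1, 267.0 and 284.8 (log2 difference -5.39, limma adjusted p = 0.00493). Serpinh1, the collagen chaperone Hsp47, went from 9033.4, 23084.4 and 11250.0 to 560.9, 187.7 and 382.3 (log2 difference -5.27, limma adjusted p = 0.00701). For each of Cybrd1, Car8 and Serpinh1 the wild-type NSC stood with the Nf1-null NSC and not with the glioma stem cells.

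The next largest falls were Fndc3c1 (-5.13), the water channel Aqp4 (-5.06), Pcp4l1 (-4.94), the actin-binding protein nebulette (Nebl, -4.72), the membrane progestin receptor Paqr7 (-4.65), Zcchc12 (-4.54), Prorsd1 (-3.84), the AMPA receptor subunit Gria1 (-3.83) and the imprinted adaptor Grb10 (-3.75). Zcchc12, a zinc finger protein described as a co-activator in BMP signalling, gave 8006.3, 9615.2 and 5586.7 against 521.1, 300.9 and 214.3. Grb10 was widely spread among the Nf1-null arrays, with 3906.5, 11383.6 and 1435.1 in Nf1-null NSC against 289.9, 267.3 and 331.8. Fndc3c1 was likewise spread, with 12183.7, 2256.5 and 1286.3 against 218.4, 56.8 and 64.1.

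Among the 15 falls, 9 kept their call when any 1 of the 9 arrays was left out, namely Fbln2, Otx2, Cybrd1, Aldh1l1, Car8, Serpinh1, Nebl, Zcchc12 and Prorsd1. Fndc3c1 lost its call when any 1 array other than glioma 1 was left out (log2 difference -5.80 to -4.18 over the 9 leave-outs), and Grb10 without any other than Nf1-null 3 (-4.49 to -3.0). Aqp4 and Gria1 lost theirs without glioma 2 or 3 or Nf1-null 1 or 3 (-5.70 to -4.58 for Aqp4 and -4.15 to -3.52 for Gria1). Pcp4l1 missed the threshold without glioma 2 or 3 or any Nf1-null array (-5.43 to -4.49), and Paqr7 without Nf1-null 1 or 3 (-5.22 to -4.05). With all probe sets of a gene averaged, Aqp4 (-3.34), Paqr7 (-3.09) and Grb10 (-1.52) lost their calls. So did Fndc3c1, whose own difference was unchanged at -5.13, as the moderated spread and the adjustment draw on all genes. Shifting the arrays to a common median ended the call of Grb10 (-3.74). The other probe sets of Grb10 were dim.

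The largest gain was of Brinp3, a neural gene named for its induction by BMP and retinoic acid. Its signals were 219.5, 16.8 and 211.8 on the Nf1-null arrays and 4541.1, 4389.4 and 4754.2 on the glioma arrays, with wild-type NSC between them at 823.5 to 1570.1. The glioma arrays were nearly equal and the Nf1-null arrays were low and scattered (log2 difference 5.6 ± 0.90 SE, limma adjusted p = 0.0346). St6gal2, an alpha-2,6-sialyltransferase, gave 483.7, 38.4 and 227.0 against 5256.8, 4448.8 and 4785.3, again even among the glioma arrays (log2 difference 4.88, limma adjusted p = 0.0408).

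Neurod1, a bHLH factor of neuronal differentiation, gave 232.1, 114.3 and 177.3 on the Nf1-null arrays, 172.3 to 190.3 in wild-type NSC and 5128.4, 2797.5 and 2675.9 on the glioma arrays. All 6 neural stem cell arrays were low and glioma array 1 was the highest of all (log2 difference 4.32 ± 0.33 SE, limma adjusted p = 0.00493). Of 29 proneural and Id genes measured, Neurod1 was the 1 gene called, and the median log2 difference of the list was -0.14. Casp12, a caspase tied to the endoplasmic reticulum, gave 227.9, 268.4 and 156.9 against 1819.9, 5617.6 and 4568.8, with wild-type NSC at 90.2 to 105.6 (log2 difference 4.08, limma adjusted p = 0.0100). It was the 1 called gene of 27 in the endoplasmic reticulum stress list, whose median was 0.08.

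The remaining large rises were Pcdh15 (log2 difference 3.59), the integrin subunit Itga8 (3.58), the neuropeptide galanin (Gal, 3.48), Tmem255a (3.34), the sterol exporter Abcg1 (3.31), lipoprotein lipase (Lpl, 3.27), the aggrecanase Adamts5 (3.27), the secreted carbonic anhydrase Car6 (3.03) and Pcdh17 (2.94), beside the receptor subunits Gabra2 and Gria4 described further on. Abcg1 went from 1752.2, 768.1 and 1367.0 to 7069.3, 16841.0 and 15114.7, and Lpl from 1035.8, 1707.9 and 1327.0 to 6919.3, 14298.4 and 21507.0. In both, as in Itga8 (570.9, 1122.1 and 963.4 against 3199.2, 18747.2 and 17781.0), glioma array 1 was well below arrays 2 and 3 and still above every neural stem cell array. Car6 was even among the glioma arrays, at 103.1, 175.9 and 101.1 against 903.9, 982.3 and 1147.1.

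Among the 15 rises, 4 kept their call without any 1 array, namely Neurod1, Casp12, Gria4 and Car6. Itga8 (3.15 to 4.42), Gal (2.95 to 4.19) and Adamts5 (2.84 to 3.86) lost it without any array other than glioma 1, and St6gal2 (3.86 to 5.67) without any other than Nf1-null 1 or 2. Brinp3 lost it without any array other than glioma 1 or Nf1-null 2 (4.40 to 6.21). Gabra2 (4.0 to 4.91) and Abcg1 (2.97 to 3.70) lost it without glioma 2 or 3 or Nf1-null 3. Lpl (2.90 to 3.72) and Pcdh17 (2.72 to 3.33) lost it without glioma 2 or 3 or any Nf1-null array, Tmem255a (3.09 to 3.76) without these or wild-type 2, and Pcdh15 (2.96 to 4.03) without glioma 2 or 3, Nf1-null 1 or wild-type 2. With all probe sets averaged, Itga8 (3.11) lost its call, and so did St6gal2, whose own difference was unchanged at 4.88.

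**Figure D2:**
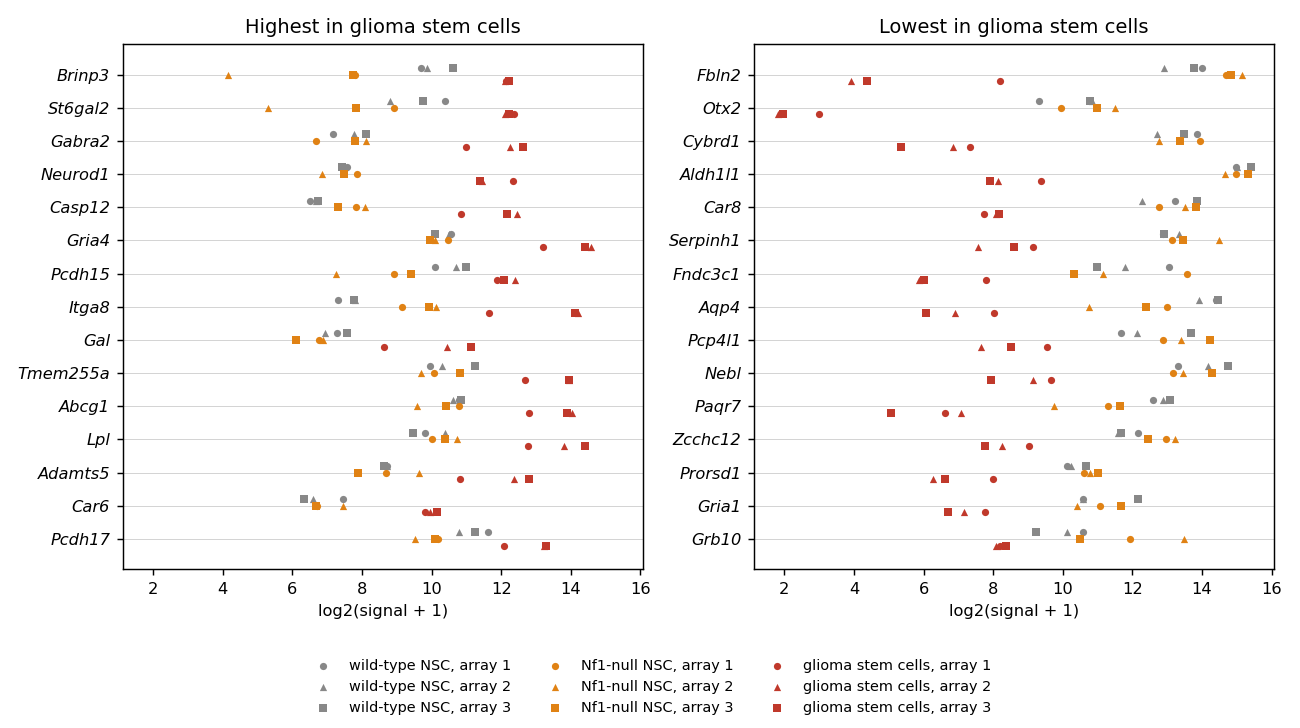
Log2(signal + 1) on each of the 9 arrays for the 15 largest rises (left) and the 15 largest falls (right) in glioma stem cells, with wild-type NSC in grey, Nf1-null NSC in orange and glioma stem cells in red, and circle, triangle and square for arrays 1, 2 and 3. In every row, as the choice of genes requires, the 3 red points lie wholly to one side of the 3 orange points, from Brinp3 (4389.4 to 4754.2 against 16.8 to 219.5 before the log) to Otx2 (2.5 to 6.9 against 984.7 to 2886.9).

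The regional identity genes changed in few members, with 2 fallen forebrain factors and 2 risen Hox genes. Of 37 forebrain and optic field factors measured, Otx2 and Emx2 fell and none rose, although the median of the list was 0.42 and 21 differences were positive. Emx2, a homeobox gene of the dorsal telencephalon, gave 2638.6, 4644.7 and 3783.1 on the Nf1-null arrays and 893.7, 531.1 and 402.9 on the glioma arrays (log2 difference -2.64, limma adjusted p = 0.0200). Every glioma array was below every neural stem cell array, wild-type NSC being at 1676.6 to 2370.0. Six3, an optic field factor singled out after its values were seen, did not pass, with 4154.5, 1124.6 and 473.0 against 3978.8, 4042.2 and 3564.7 (log2 difference 1.56, limma adjusted p = 0.398).

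Of 33 Hox cluster genes measured, Hoxa5 and Hoxa3 rose and none fell, and the median was 0.19. Under a signal of 300 were 31 or 32 of the 33 on each Nf1-null array and 31 on each glioma array. A fall could therefore hardly be seen in this list, and its median is mostly that of dim signals. Hoxa5 gave 303.9, 863.0 and 657.5 on the Nf1-null arrays and 2270.1, 2886.8 and 2797.7 on the glioma arrays (log2 difference 2.24, limma adjusted p = 0.0369). Hoxa3 was at 109.3, 188.8 and 177.5 against 728.8, 473.1 and 409.9 (log2 difference 1.75, limma adjusted p = 0.0457). Both belong to the Hoxa cluster, whose anterior members are active in the hindbrain and neck region of the embryo. Of 17 Sox factors, Sox1, an early neural gene, fell from 2503.1, 990.0 and 1589.0 to 391.9, 111.4 and 160.1 (log2 difference -3.04, limma adjusted p = 0.0369), and the list median was -0.55 with 3 positive differences. Emx2 (-2.95 to -2.38) lost its call without glioma 2 or 3 or Nf1-null 2 or 3. Hoxa5 (1.81 to 2.56) lost it without glioma 2 or 3, Nf1-null 3 or any wild-type array, Hoxa3 (1.5 to 1.92) without any 1 of the 9 arrays, and Sox1 (-3.55 to -2.65) without any array other than glioma 1. Averaging probe sets ended the calls of Hoxa3 (2.07) and Sox1 (-1.25).

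Astrocyte genes were lower in part of the list. Of 26 measured, Aldh1l1, Aqp4 and Gja1 fell and none rose, 10 lay wholly below and 1 wholly above the Nf1-null arrays, and the median was -0.85. Per array the list median was -0.30, -1.05 and -1.31 on glioma arrays 1, 2 and 3 and -0.48 to 0.43 on Nf1-null arrays, so array 1 lay within the Nf1-null range. Aqp4 gave 8138.6, 1734.0 and 5382.0 on the Nf1-null arrays and 258.2, 117.6 and 66.2 on the glioma arrays, and was higher still in wild-type NSC, at 15425.9 to 22502.1. Gja1, the gap junction protein connexin 43, went from 46357.8, 28033.8 and 40996.1 to 13240.9, 5005.7 and 4946.8 (log2 difference -2.45, limma adjusted p = 0.0346). Without any 1 array other than glioma 1, Gja1 missed the threshold (-2.92 to -2.21), and Aqp4 did so without glioma 2 or 3 or Nf1-null 1 or 3 (-5.70 to -4.58).

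Over the whole list 18 of the 26 differences were negative and 8 positive, and 4 further members, singled out after their values were seen, were of both signs. S100b, a calcium-binding protein, gave 3070.8, 3884.3 and 10179.4 on the Nf1-null arrays and 17467.7, 34245.9 and 33524.6 on the glioma arrays, a separation in the opposite direction that missed the threshold (log2 difference 2.46, limma adjusted p = 0.0809). Gfap was at 3053.0, 200.6 and 158.5 against 167.7, 24.4 and 52.3 (-2.92, limma adjusted p = 0.294), with overlap. The glutamate transporter Slc1a3 was at 23233.3 to 33346.6 against 16657.2 to 28352.0, and apolipoprotein E (Apoe) at 24250.1 to 48764.0 against 41452.5 to 51239.7, both with overlap.

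Oligodendrocyte precursor genes were mostly higher in value, though few passed. Of 19 measured, Pcdh15 and Lhfpl3 rose, Emid1 fell, 17 differences were positive, 10 genes lay wholly above and 1 wholly below, and the median was 1.01. The list median was 0.74, 1.14 and 1.04 on the glioma arrays, -0.75 to 0.52 on Nf1-null arrays and 0.59 to 1.23 on wild-type arrays, so glioma and wild-type cultures overlapped. Pcdh15, a protocadherin used to mark these cells, gave 478.7, 151.6 and 674.4 on the Nf1-null arrays, 1099.6 to 2044.9 in wild-type NSC and 3728.6, 5337.7 and 4365.1 on the glioma arrays (limma adjusted p = 0.0281). Lhfpl3 went from 3843.8, 1442.5 and 4051.1 to 12121.6, 18185.1 and 17537.2 (log2 difference 2.48, limma adjusted p = 0.0391), overlapping the 8380.8 to 13869.2 of wild-type NSC. Emid1 fell from 75.7, 192.3 and 412.2 to 13.6, 8.0 and 9.4 (log2 difference -4.04, limma adjusted p = 0.0335, and -2.94 with a pseudocount of 16).

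The defining receptor of these cells, Pdgfra, singled out after its values were seen, was at 2673.0, 457.4 and 3304.6 on the Nf1-null arrays and 2663.1, 14127.2 and 7731.3 on the glioma arrays, an overlap through array 1 (log2 difference 2.06, limma adjusted p = 0.285). Its ligand Pdgfa, a mitogen of these precursors, rose from 942.2, 1788.4 and 1005.7 to 3598.9, 12306.2 and 12940.5 (log2 difference 2.80, limma adjusted p = 0.0447). The proteoglycan Cspg4 (NG2) was at 610.5, 363.8 and 1766.7 against 3533.7, 4174.2 and 2605.4 (2.20, limma adjusted p = 0.113) and Olig2 at 21742.2 to 24846.2 against 33060.7 to 36775.3 (0.58, limma adjusted p = 0.107), both without overlap and short of the threshold. Sox10, a factor of the same list, went the other way in value, with overlap, and its signals are given below with the Schwann cell genes. Leaving out any array other than glioma 1 ended the call of Pdgfa (2.48 to 3.40). For Lhfpl3 (1.99 to 2.74) every array did so other than glioma 1 and Nf1-null 2. Emid1 (-4.67 to -3.46) lost its call without glioma 2 or 3, Nf1-null 2 or 3 or wild-type 2, and Pcdh15 (2.96 to 4.03) without glioma 2 or 3, Nf1-null 1 or wild-type 2. With all probe sets averaged, Pdgfa (2.78) and Lhfpl3 (2.33) missed the threshold.

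Of 23 myelin and mature oligodendrocyte genes, Bcas1 and Ppp1r14a rose, Opalin fell, and the median was 0.68. Bcas1, a gene of newly forming oligodendrocytes, went from 3648.7, 2966.3 and 6211.2 to 25472.1, 28380.1 and 28301.6, while wild-type NSC spanned 10160.5 to 31052.0 (log2 difference 2.75, limma adjusted p = 0.0328). The glioma arrays were nearly equal, above all Nf1-null arrays and inside the wild-type range. Ppp1r14a, an inhibitor of myosin phosphatase, was at 6.3, 18.5 and 11.7 against 118.9, 57.9 and 269.6 (log2 difference 3.35, limma adjusted p = 0.0375, and 2.35 with a pseudocount of 16). Opalin, a myelin membrane protein, went from 672.4, 605.8 and 869.1 to 270.0, 304.2 and 174.0 (log2 difference -1.54, limma adjusted p = 0.0396). Wild-type NSC had Opalin at 204.3 to 299.2, so glioma and wild-type arrays overlapped and the Nf1-null arrays lay above both. The myelin list median was -0.12, 0.49 and 1.67 on glioma arrays 1, 2 and 3, a wider spread than the -0.47 to 0.40 of the Nf1-null arrays. The wild-type arrays were at 0.73 to 1.62, above glioma arrays 1 and 2 and below array 3. Bcas1 (2.52 to 3.06) lost its call without glioma 2 or 3, any Nf1-null array or wild-type 2. Ppp1r14a (2.79 to 3.89) lost it without any array other than glioma 1 or 2, and Opalin (-1.70 to -1.30) without any other than glioma 1 and with all probe sets averaged (-1.20).

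Of 27 neuronal genes, Rbfox1 and Tubb3 rose and none fell, with a median of 0.29. Tubb3, a tubulin of young neurons, gave 456.4, 496.7 and 260.0 on the Nf1-null arrays and 1329.7, 1688.2 and 2194.1 on the glioma arrays (log2 difference 2.13, limma adjusted p = 0.0344). Rbfox1, a neuronal splicing factor, gave 105.4, 28.2 and 64.6 against 323.1, 783.1 and 1455.5 (log2 difference 3.61, limma adjusted p = 0.0438). Neither group overlapped the other for these genes, and the summed signal of the list overlapped, at 74670.3 to 108478.4 against 91756.2 to 92336.6. Rbfox1 (3.10 to 4.18) lost its call without any array other than glioma 1 and with probe sets averaged (2.51), and Tubb3 (1.84 to 2.30) without any other than glioma 1 or wild-type 3.

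Some stem and progenitor markers gave signal in both groups, and the labelled cell type was not tested. Singled out after their values were seen, Sox2 was at 36994.0 to 39814.9 on the Nf1-null arrays and 28137.3 to 40343.3 on the glioma arrays, Vim at 80058.0 to 104710.2 and 94053.8 to 96888.7, Fabp7 at 89321.3 to 100791.2 and 83913.4 to 103504.8, and Nes at 3479.9 to 9490.2 and 8931.7 to 11387.8. All 4 overlapped and none passed the test. Of 21 neural stem cell genes, Sox1 and Hopx fell and none rose, 7 differences were positive and 14 negative, and the median was -0.18. Hopx, a homeodomain protein of quiescent stem cells and astrocytes, went from 6520.6, 7529.2 and 6861.6 to 1492.6, 1601.4 and 2762.1 (log2 difference -1.89, limma adjusted p = 0.0375). That call was lost without any array other than glioma 3 or wild-type 2 (-2.17 to -1.73).

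Markers of other cell types were called in few cases, and their signals differed between lists. The microglial markers C1qa and C1qc were at 5.8 to 17.9 in the 6 arrays for C1qa and 6.2 to 10.1 for C1qc, and Aif1 was at 5.4 to 62.3. None of 22 microglia and macrophage genes was called, 18 to 20 of them were under 300 on each glioma array, and their summed signal was 2832.8 to 4283.3 on the Nf1-null arrays and 3194.2 to 8223.8 on the glioma arrays. Pf4, a platelet and macrophage chemokine, made up most of the sum on glioma arrays 2 and 3, at 2902.3 and 5114.2, and did not pass (limma adjusted p = 0.324). None of 16 fibroblast and meningeal genes, 17 Schwann cell and neural crest genes or 20 ependymal and cilium genes was called, and Col1a1 was at 79.6 to 150.0 over the 6 arrays. In the Schwann cell and neural crest list 6 to 8 of the 17 genes were under 300 on each glioma array, and the summed signal was 66367.5, 106389.1 and 145210.3 on glioma arrays 1, 2 and 3 against 59107.3 to 85859.5 on the Nf1-null arrays. Mbp, which oligodendrocytes also express, made up 2601.3, 29057.3 and 65239.2 of these glioma sums. Of the defining members, Sox10 was at 741.4 to 2176.0 against 262.8 to 1037.1, Foxd3 at 32.2 to 147.8 against 37.3 to 118.3, and Ngfr at 53.9 to 250.4 against 73.3 to 96.3, all with overlap. Cdh19 separated the groups, at 1654.9, 2033.8 and 2771.5 against 7181.4, 7192.4 and 7454.9. It missed the threshold (log2 difference 1.79, limma adjusted p = 0.0889). In this list 10 differences were positive and 7 negative, with 2 genes wholly above and 3 wholly below. The part of such cells in the results was not tested. In the ependymal list Rfx3, a ciliogenic factor, was at 6623.6 to 6928.0 against 1522.3 to 4010.3 (log2 difference -1.58, limma adjusted p = 0.0725). The median of that list was -0.59, its summed signal was 11209.8 to 13604.6 against 7487.4 to 7816.3, and the part of a ciliated cell fraction was not tested.

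Of 20 endothelial and pericyte genes, 2 fell. Acta2, smooth muscle actin, went from 993.4, 1302.9 and 760.6 to 295.8, 280.2 and 231.9 (log2 difference -1.89, limma adjusted p = 0.0273), and Emcn from 150.1, 199.7 and 157.4 to 12.7, 26.4 and 40.2 (log2 difference -2.76, limma adjusted p = 0.0298, and -2.17 with a pseudocount of 16). The defining endothelial marker Cdh5 was at 40.3 to 123.6 and 25.1 to 53.7. Acta2 (-2.08 to -1.69) lost its call without glioma 2 or 3, any Nf1-null array or wild-type 1, and with probe sets averaged (-0.82). Emcn (-3.12 to -2.33) lost it without glioma 2, any Nf1-null array or wild-type 2. The summed signal of this list was 9908.2 to 36410.1 on the Nf1-null arrays and 9081.8 to 10892.2 on the glioma arrays.

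**Figure D3:**
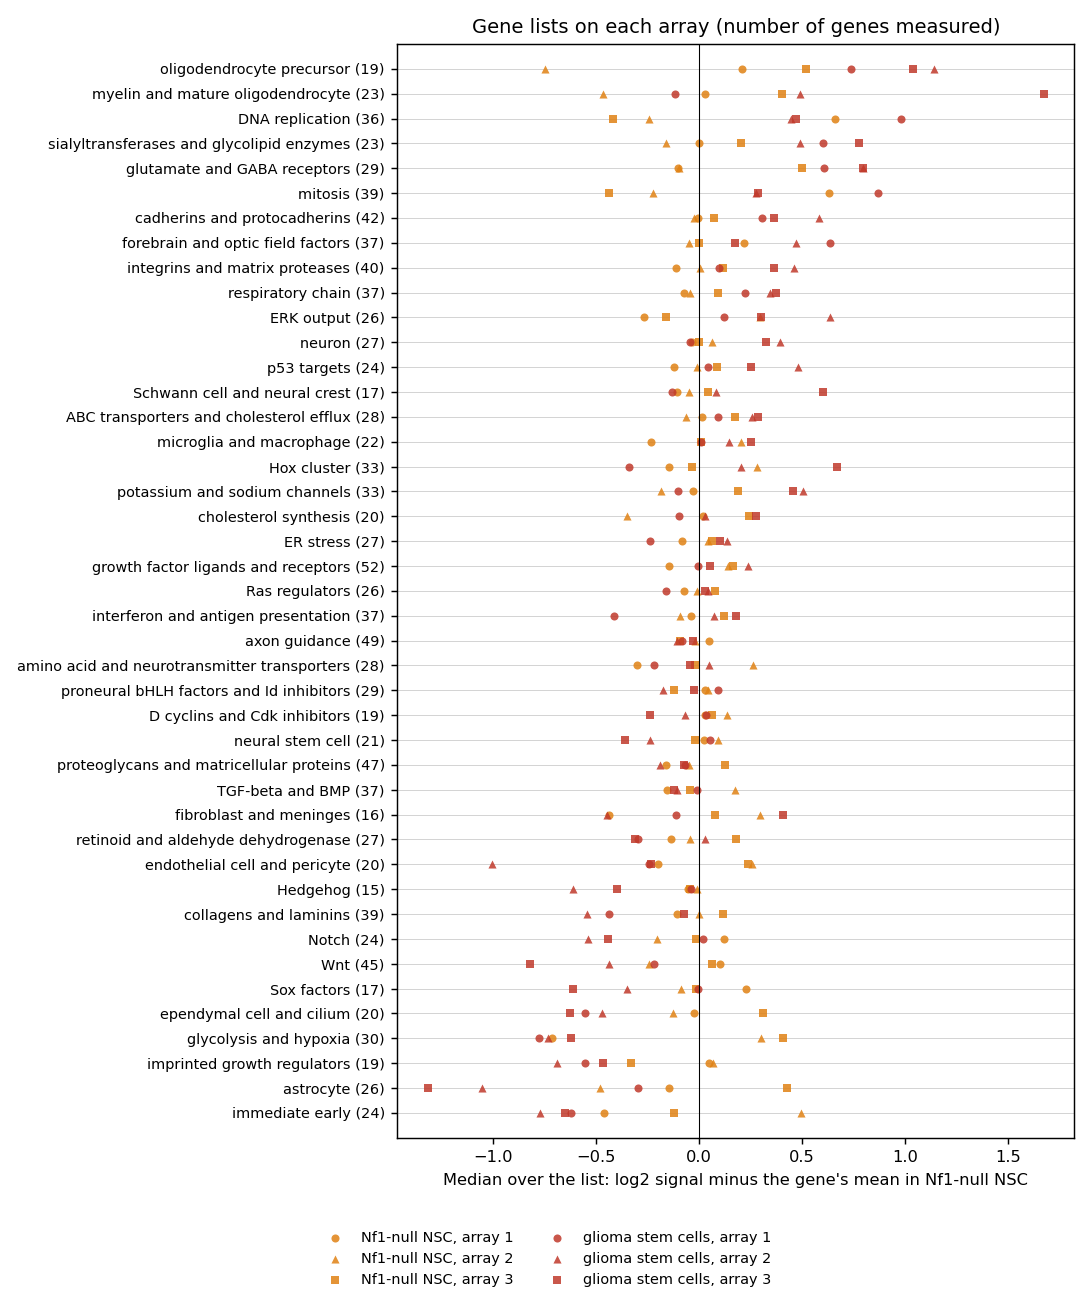
Median log2 distance from the Nf1-null mean over each of 43 gene lists, on each glioma stem cell array (red) and Nf1-null array (orange), with circle, triangle and square for arrays 1, 2 and 3. The oligodendrocyte precursor list, whose median difference between the groups is 1.01, stands at 0.74, 1.14 and 1.04 on the glioma arrays. The myelin and astrocyte lists show the widest spread between glioma arrays.

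Subunits of receptors for fast transmitters changed in both directions. Of 29 glutamate and GABA receptor genes, Gabra2, Gria4, Grik1 and Grik3 rose and Gria1 fell, 10 lay wholly above and 2 wholly below, and the median was 0.48. Gria4, an AMPA receptor subunit, gave 1410.7, 1103.6 and 996.3 on the Nf1-null arrays, 1083.6 to 1499.2 in wild-type NSC and 9432.4, 24255.1 and 21555.8 on the glioma arrays. The 2 neural stem cell groups were alike in range and every glioma array stood far above them (log2 difference 3.88 ± 0.36 SE, limma adjusted p = 0.00701). Gria1, another AMPA subunit, went the other way, from 2123.3, 1358.8 and 3238.2 to 216.9, 142.1 and 102.9 (log2 difference -3.83 ± 0.52 SE, limma adjusted p = 0.0224).

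Gabra2, the alpha-2 subunit of the GABA-A receptor, gave 102.3, 276.9 and 222.2 against 2023.0, 4907.0 and 6314.3 (log2 difference 4.42, limma adjusted p = 0.0158). Of the kainate receptor subunits, Grik3 went from 781.7, 697.2 and 538.7 to 2207.8, 2497.2 and 2043.7 (log2 difference 1.75, limma adjusted p = 0.0222) and Grik1 from 84.3, 96.5 and 29.1 to 305.0, 783.4 and 782.9 (log2 difference 3.18, limma adjusted p = 0.0375). Wild-type NSC had Grik3 at 1131.5 to 1820.7, between the other groups. Gria4 kept its call in every leave-out. Grik1 (2.65 to 3.64) lost its call without any array other than glioma 1, and Grik3 (1.60 to 1.87) without glioma 2 or 3 or any Nf1-null array. Gabra2 (4.0 to 4.91) lost it without glioma 2 or 3 or Nf1-null 3, and Gria1 (-4.15 to -3.52) without glioma 2 or 3 or Nf1-null 1 or 3. Averaging probe sets ended the calls of Grik1 (3.41) and Grik3 (0.52).

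Of 33 potassium and sodium channel genes, Scn2b, Kcnip3 and Scn8a rose and Kcnf1 and Kcna2 fell, with a median of 0.16. Scn8a, the sodium channel Nav1.6, gave 516.9, 784.3 and 838.1 on the Nf1-null arrays and 2048.4, 1885.3 and 1599.1 on the glioma arrays (log2 difference 1.39, limma adjusted p = 0.0439), and 1710.2 to 2595.6 in wild-type NSC, so glioma and wild-type arrays overlapped. Scn2b, a sodium channel beta subunit, went from 91.9, 122.5 and 127.1 to 340.0, 520.0 and 397.3 (1.86, limma adjusted p = 0.0236), and Kcnip3, a calcium sensor that partners potassium channels, from 700.8, 535.2 and 1016.9 to 2593.2, 1863.3 and 1816.7 (1.51, limma adjusted p = 0.0488). Kcna2, the potassium channel Kv1.2, fell from 3829.3, 2023.5 and 3883.6 to 1023.9, 1111.9 and 1051.1 (log2 difference -1.55, limma adjusted p = 0.0375). Kcnf1 fell from 114.4, 148.7 and 188.4 to 30.5, 10 and 11.9 (-3.17, limma adjusted p = 0.0215, and -2.34 with a pseudocount of 16).

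These 5 calls depended on single arrays. Kcnip3 (1.29 to 1.75) and Scn8a (1.18 to 1.53) were lost without any 1 of the 9 arrays, and Kcna2 (-1.86 to -1.39) without any other than Nf1-null 2. Scn2b (1.70 to 2.0) and Kcnf1 (-3.64 to -2.88) were lost without glioma 2 or 3 or any Nf1-null array. All 5 missed the threshold with probe sets averaged, at 2.58 for Kcnip3, 0.69 for Scn8a, -0.19 for Kcna2, 0.80 for Scn2b and -1.36 for Kcnf1. Among transporters of amino acids and transmitters, the taurine transporter Slc6a6 was the 1 called of 28, rising from 1244.8, 857.2 and 596.4 to 2108.9, 4181.4 and 3874.6 (log2 difference 1.91, limma adjusted p = 0.0463). It lost its call without any array other than glioma 1 (1.65 to 2.23) and with probe sets averaged (1.38).

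Of 42 cadherins, protocadherins and neural adhesion genes, 6 rose and none fell: Pcdh15, Pcdh17, Nfasc, Pcdh11x, Pcdh7 and Cdh10. Wholly above were 15 genes and wholly below 7, and the median was 0.44. Pcdh17 went from 1155.6, 736.1 and 1085.3 to 4324.7, 9551.2 and 10068.9, and Pcdh11x from 978.5, 642.2 and 1952.3 to 3694.5, 7656.9 and 7281.3 (log2 difference 2.46, limma adjusted p = 0.0491). Nfasc, the axoglial adhesion protein neurofascin, went from 222.5, 180.8 and 214.6 to 650.7, 2294.6 and 2247.7 (log2 difference 2.86, limma adjusted p = 0.0481). In these 3 genes array 1 was the lowest glioma array. Its signal lay within the wild-type range for Pcdh11x (2837.1 to 4789.6) and Nfasc (511.4 to 1258.6), and above that of Pcdh17 (1777.0 to 3126.5). Pcdh7 (1.12) and Cdh10 (0.87) moved less, Cdh10 from 4706.4 to 5000.7 up to 7835.0 to 9641.0 (limma adjusted p = 0.0375).

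Apart from Pcdh15 and Pcdh17, whose leave-outs are given above, these genes, Nfasc (2.55 to 3.46), Pcdh11x (2.09 to 2.90), Pcdh7 (1.02 to 1.26) and Cdh10 (0.81 to 0.96), lost their call without any array other than glioma 1. They also missed it with all probe sets averaged (2.84, 2.13, 0.65 and 0.98). Of 49 axon guidance genes 1 was called, Robo3, a guidance receptor of commissural axons, which fell from 122.7, 156.7 and 90.5 to 41.4, 48.1 and 56.7 (log2 difference -1.30, limma adjusted p = 0.0396). Wild-type NSC had Robo3 at 49.5 to 54.5, inside the glioma range, so the Nf1-null arrays lay above both. Robo3 lost its call without any array other than Nf1-null 3 (-1.5 to -1.11), with probe sets averaged (-0.74) and with a mean-variance trend (-1.30, limma adjusted p = 0.145).

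In 2 lists of extracellular matrix genes, 2 members each were called lower and none was called higher. Of 39 collagens and laminins, Col9a3 and Col5a2 fell, 12 lay wholly below and 2 wholly above, and the median was -0.39. Col5a2, a fibrillar collagen chain, went from 10450.4, 7999.5 and 9828.9 to 1876.6, 2226.6 and 3060.2 (log2 difference -2.0, limma adjusted p = 0.0358), and Col9a3 from 1108.7, 928.8 and 1617.1 to 296.7, 109.5 and 212.3 (-2.63, limma adjusted p = 0.0376). Of 47 proteoglycans and matricellular proteins, Fbln2 and Thbs2 fell, 6 lay wholly below and 4 wholly above, and the median was -0.19. Over all genes, 12.7% lay wholly below and 9.24% wholly above. Thbs2, thrombospondin 2, went from 1294.4, 617.0 and 493.9 to 114.6, 59.1 and 88.3 (log2 difference -3.11, limma adjusted p = 0.0195).

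Of 40 integrins, matrix proteases and their inhibitors, Itga8, Adamts5 and Mmp16 rose and Timp1, Mmp14 and Adamts12 fell, with a median of 0.32. The membrane-bound metalloproteases moved apart. Mmp14 (MT1-MMP) fell from 3077.4, 4945.5 and 5987.6 to 468.1, 590.2 and 421.5 (log2 difference -3.20 ± 0.30 SE, limma adjusted p = 0.00701), and Mmp16 (MT3-MMP) rose from 1159.9, 517.9 and 774.3 to 2011.2, 3779.0 and 3282.1 (log2 difference 1.91 ± 0.34 SE, limma adjusted p = 0.0439). The glioma arrays were even for Mmp14 and far below all neural stem cell arrays, wild-type NSC being at 2875.0 to 4604.8. Timp1, a secreted inhibitor of metalloproteases, fell from 1409.4, 2653.3 and 789.5 to 222.3, 108.4 and 140.4 (-3.25, limma adjusted p = 0.0224), below the 307.0 to 347.8 of wild-type NSC. Adamts12 fell from 793.4, 899.1 and 1919.3 to 282.5, 203.5 and 327.9 (-2.06, limma adjusted p = 0.0389), and Adamts5 rose from 407.7, 791.6 and 233.2 to 1785.1, 5285.4 and 7149.9.

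Mmp14 and Fbln2 kept their calls without any 1 array. Adamts12 (-2.30 to -1.66) and Mmp16 (1.62 to 2.20) lost theirs without any array other than glioma 1. Col5a2 (-2.20 to -1.84) lost it without glioma 2 or 3, any Nf1-null array or wild-type 3, and Col9a3 (-2.95 to -2.23) without these Nf1-null and glioma arrays or wild-type 1 or 2. Thbs2 (-3.39 to -2.70) lost it without glioma 2 or 3 or Nf1-null 2, and Timp1 (-3.68 to -2.80) without glioma 2 or 3 or Nf1-null 1. Averaging probe sets ended the calls of Col9a3 (-2.03), Adamts12 (-1.71) and Mmp16 (2.01).

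In the TGF-beta and BMP list, 2 ligands rose, 1 ligand fell and 1 binding protein fell, out of 37 measured, with a median of -0.21. Tgfb2 gave 1758.8, 1486.8 and 2000.9 on the Nf1-null arrays, 2348.2 to 2409.3 in wild-type NSC and 7163.8, 7787.2 and 9468.7 on the glioma arrays (log2 difference 2.22 ± 0.17 SE, limma adjusted p = 0.00493). Tgfb3, a ligand of the same receptors, fell from 268.3, 394.7 and 477.3 to 16, 35.7 and 27.7 (log2 difference -3.83 ± 0.35 SE, limma adjusted p = 0.00701, and -3.21 with a pseudocount of 16). Every glioma array was above all neural stem cell arrays for Tgfb2 and below all of them for Tgfb3. Bmp7 rose from 1295.3, 1244.0 and 1152.5 to 3088.1, 3006.3 and 3871.1 (log2 difference 1.42, limma adjusted p = 0.0114), with wild-type NSC at 1101.1 to 1225.8. Fstl1, a secreted BMP antagonist, fell from 7948.0, 9560.8 and 8005.4 to 4315.2, 4084.8 and 3235.1 (log2 difference -1.14, limma adjusted p = 0.0273). The first 3 kept their calls in all 9 leave-outs, and Fstl1 lost its call without any array other than glioma 1 (-1.22 to -1.01).

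Of 52 growth factors and receptors, Pdgfa rose and Igf1 and Mdk fell, with a median of 0.03. Igf1, the insulin-like growth factor, gave 1353.1, 1223.3 and 1679.1 on the Nf1-null arrays and 136.4, 94.5 and 119.0 on the glioma arrays, with wild-type NSC at 217.0 to 528.0 (log2 difference -3.60 ± 0.33 SE, limma adjusted p = 0.00701). The Nf1-null cultures stood above both other groups. Mdk, the heparin-binding factor midkine, fell from 1731.0, 2080.9 and 2278.4 to 435.2, 347.8 and 177.6 (log2 difference -2.75, limma adjusted p = 0.0147). Igf1 kept its call in every leave-out, and Mdk lost it without Nf1-null 3 (-2.66).

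Of 45 Wnt pathway genes, Lgr5 rose and Wnt5a fell, 10 lay wholly below and 2 wholly above, and the median was -0.44. Lgr5, a receptor for R-spondins and a Wnt target, went from 457.6, 257.0 and 308.1 to 3284.0, 1689.4 and 1970.9 (log2 difference 2.74 ± 0.30 SE, limma adjusted p = 0.0119). Wild-type NSC were at 441.2 to 525.8, and glioma array 1 was the highest. The ligand Wnt5a went from 9040.9, 6227.6 and 10507.5 to 3760.7, 2241.0 and 1658.2 (log2 difference -1.80, limma adjusted p = 0.0439). Lgr5 kept its call in every leave-out but not with probe sets averaged (1.68), and Wnt5a lost it without any array other than glioma 1 (-2.12 to -1.53) and with probe sets averaged (-1.58).

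None of 24 Notch genes and none of 15 Hedgehog genes was called, and the medians were -0.42 and -0.35. Hey1, a Notch target, was at 6822.3, 5667.5 and 9584.8 against 4345.3, 2650.2 and 2315.9 (log2 difference -1.27, limma adjusted p = 0.102). The Hedgehog effector Gli2 was at 826.3, 838.5 and 980.3 against 528.8, 255.6 and 308.0 (-1.34, limma adjusted p = 0.0835). Both separated the groups without passing.

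Among genes around Ras, the protein that neurofibromin switches off, none of 26 regulators was called, and their median was 0.00. Nras was at 11917.7, 13270.7 and 10600.7 against 9137.9, 6844.7 and 7397.3 (log2 difference -0.62, limma adjusted p = 0.132), and Rasa3, a Ras GTPase-activating protein, at 4426.1 to 7587.1 against 9638.3 to 11024.2 (0.81, limma adjusted p = 0.151). Of 26 ERK output genes 1 was called, the EGF receptor ligand Ereg, which fell from 430.3, 872.0 and 557.7 to 82.1, 83.5 and 57.2 (log2 difference -3.0, limma adjusted p = 0.0292). Wild-type NSC had 58.5 to 172.1, so glioma and wild-type arrays overlapped and both lay below the Nf1-null arrays for this gene, while the median of the list was 0.29. Over the ERK output list, the wild-type arrays had medians of -1.37 to -0.99 against the Nf1-null mean, and the glioma arrays 0.12 to 0.64. The Nf1-null arrays themselves were at -0.26 to 0.30, so glioma array 1, at 0.12, lay within their range.

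Immediate early genes, which respond quickly to growth factors, had a median of -0.86 over 24 genes, with 8 wholly below and none wholly above. Fos passed, falling from 8995.0, 13470.8 and 14209.2 to 3991.9, 4757.6 and 3385.4 (log2 difference -1.58, limma adjusted p = 0.0488), where wild-type NSC were at 3023.2 to 5773.4. Glioma and wild-type arrays overlapped and the Nf1-null arrays stood above both. Ereg (-3.23 to -2.73) lost its call without glioma 2 or 3, any Nf1-null array or wild-type 2. Fos lost it without any 1 of the 9 arrays (-1.79 to -1.46) and with arrays shifted to a common median (-1.57, limma adjusted p = 0.051). The call of Fos was also lost with probe sets averaged, where its own difference was unchanged (-1.58).

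Interferon and antigen presentation genes split, with 1 rise and 2 falls among 37 measured and a median of -0.10. Gbp2, an interferon-induced GTPase, gave 641.7, 706.5 and 633.3 on the Nf1-null arrays, 559.8 to 881.8 in wild-type NSC and 52.3, 65.4 and 51.7 on the glioma arrays (log2 difference -3.53 ± 0.20 SE, limma adjusted p = 0.00241). Both sides were tight and far apart. The class I heavy chain H2-K1 fell from 5867.8, 6220.2 and 6315.0 to 1970.9, 2022.0 and 2212.2 (log2 difference -1.57, limma adjusted p = 0.0119). Its light chain B2m rose from 17269.8, 18502.7 and 17430.5 to 27581.4, 38434.6 and 38017.6 (log2 difference 0.95, limma adjusted p = 0.0439). H2-K1 lost its call without glioma 2 (values over the leave-outs -1.62 to -1.54) and B2m without any array other than glioma 1 (0.87 to 1.11), and both did so with probe sets averaged (-0.90 and 0.91). H2 genes are near-identical copies, so a class I probe set can take up RNA of another.

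Sialyltransferases and glycolipid enzymes were higher in 3 of 23 genes and lower in none, with 11 wholly above, none wholly below and a median of 0.48. Beside St6gal2, St3gal6 rose from 299.4, 441.4 and 626.6 to 1663.9, 4059.0 and 4784.2 (log2 difference 2.87, limma adjusted p = 0.0402). St8sia1, the GD3 synthase, rose from 1740.2, 1476.6 and 2312.2 to 8655.5, 7677.2 and 6985.8 (log2 difference 2.10, limma adjusted p = 0.0175). GD3 and its derivatives mark glial progenitors. St3gal6 lost its call without any array other than glioma 1 (2.57 to 3.33) and St8sia1 without glioma 2 or 3 or Nf1-null 1 or 2 (1.95 to 2.27).

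Of 28 ABC transporters and cholesterol efflux genes, Abcg1, Abca9 and Abcb1b rose and none fell by the test. By value, 3 lay wholly above and 5 wholly below the Nf1-null arrays, and the median was 0.22. Abca9 was at 75.6, 64.0 and 75.2 against 222.9, 355.4 and 320.7 (log2 difference 2.03, limma adjusted p = 0.0100). Abcb1b, a drug efflux pump of the P-glycoprotein family, rose from 273.3, 262.5 and 268.8 to 534.4, 876.5 and 929.5 (log2 difference 1.5, limma adjusted p = 0.0340). None of 20 cholesterol synthesis genes was called, and their median was 0.12. Abca9 kept its call in every leave-out but not with probe sets averaged (1.25), and Abcb1b lost it without any array other than glioma 1 (1.35 to 1.75) and with probe sets averaged (0.61).

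Genes of DNA replication and mitosis were higher in value in nearly every member and passed in none. All 36 replication genes and 38 of 39 mitosis genes had a positive difference, with medians of 0.63 and 0.46, and 5 and 2 of them lay wholly above the Nf1-null arrays. Prim2, a primase subunit, was at 2714.6, 2291.5 and 2268.2 against 4508.1, 3073.7 and 3192.1 (log2 difference 0.55, limma adjusted p = 0.321). The replication medians were 0.98, 0.45 and 0.47 on the glioma arrays and 0.66, -0.24 and -0.42 on the Nf1-null arrays, so Nf1-null array 1 lay inside the glioma range. The wild-type arrays were at -1.75 to -0.62. None of 19 D cyclins and Cdk inhibitors was called. Among these Cdkn1c, the imprinted inhibitor p57, was at 1294.1, 653.4 and 1157.7 against 413.8, 228.4 and 218.1 (-1.85, limma adjusted p = 0.0870).

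Respiratory chain and glycolysis genes differed in opposite directions by value, with no gene passing the test. All 37 respiratory chain genes were higher by value, 30 lay wholly above, none was called, and the median was 0.32. Per array the median was 0.22, 0.35 and 0.38 on the glioma arrays and -0.07 to 0.09 on Nf1-null arrays, with wild-type arrays at -0.13 to 0.08. Ndufa5, a complex I subunit, was at 13392.1, 11107.0 and 13279.8 against 16308.4, 20739.7 and 22125.4 (log2 difference 0.64, limma adjusted p = 0.125). Of 30 glycolysis and hypoxia genes none was called, 5 differences were positive, 14 lay wholly below and the median was -0.62. Ddit4, a hypoxia-responsive mTOR inhibitor, was nearest to the threshold, at 11082.8, 23271.4 and 17971.0 against 7717.5, 5362.2 and 4335.8 (-1.56, limma adjusted p = 0.0609). The list median of Nf1-null array 1 was -0.71, within the -0.78 to -0.62 of the glioma arrays, while Nf1-null arrays 2 and 3 were at 0.30 and 0.41.

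**Figure D4:**
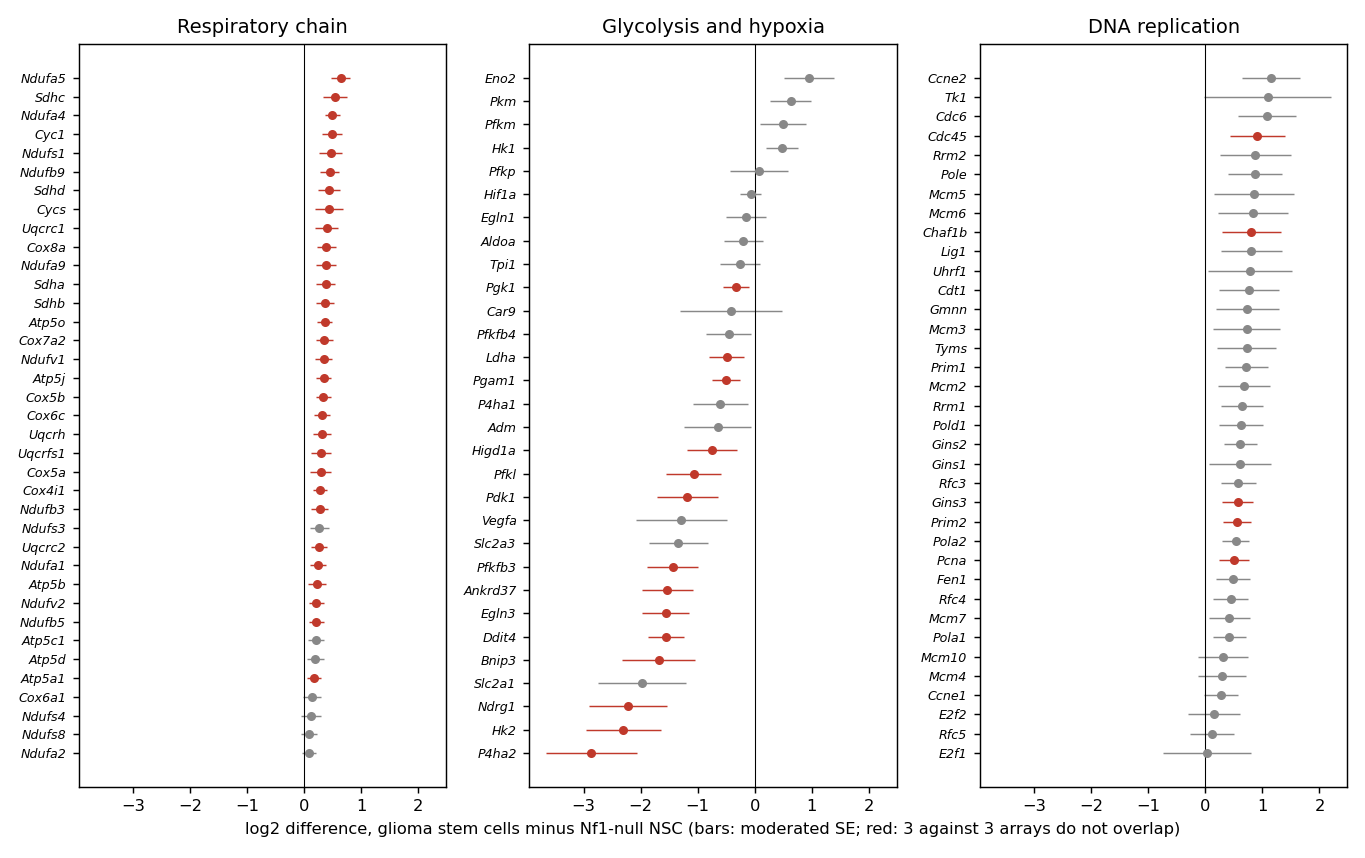
Log2 difference, glioma stem cells minus Nf1-null NSC, of each measured gene of the respiratory chain (37), of glycolysis and hypoxia (30) and of DNA replication (36), with bars for the moderated standard error and red for genes whose 3 glioma arrays do not overlap the 3 Nf1-null arrays. Respiratory chain and replication genes lie to the right of 0 and most glycolysis and hypoxia genes to the left, and no gene shown passed the adjusted test.

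Of 19 imprinted growth regulators, Grb10 and Peg3 fell, none rose, 7 lay wholly below and the median was -0.74. Peg3, a zinc finger protein expressed from the paternal allele, went from 40877.1, 38697.8 and 38932.9 to 11092.3, 6837.7 and 3925.5 (log2 difference -2.56, limma adjusted p = 0.0222), and wild-type NSC had 24661.9 to 32290.1. It lost its call without glioma 2 or any Nf1-null array (-2.93 to -2.18), and Grb10 without any array other than Nf1-null 3 (-4.49 to -3.0) and with probe sets averaged (-1.52). None of 24 p53 target genes was called, 8 lay wholly above, and the median was 0.25. Eda2r, a p53-induced receptor of the TNF receptor family, was at 4876.5, 3396.1 and 4055.3 against 6794.0, 8576.5 and 7726.6 (0.91, limma adjusted p = 0.0571). In the list of 27 retinoid and aldehyde dehydrogenase genes, Aldh1l1 was the 1 called gene and the median was -0.30.

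Some of the largest differences missed the threshold, and in these the arrays of 1 group were widely spread. Mbp, the myelin basic protein, was at 376.5, 189.2 and 297.4 on the Nf1-null arrays and 2601.3, 29057.3 and 65239.2 on the glioma arrays, a separation with a wide spread between the glioma arrays (log2 difference 5.94 ± 1.30 SE, limma adjusted p = 0.0799). Wild-type NSC had Mbp at 495.4 to 6599.4, so glioma array 1 lay within the wild-type range. Apolipoprotein D (Apod) was at 160.9, 102.4 and 180.8 against 501.7, 5458.9 and 19746.4 (4.71 ± 1.41 SE, limma adjusted p = 0.158). Rfx4, a transcription factor of neural progenitors, was at 38254.8, 43230.0 and 45368.4 against 11192.4, 2038.6 and 786.9 (-4.01 ± 0.82 SE, limma adjusted p = 0.0649). In all 3, array 1 was nearest to the Nf1-null arrays and array 3 farthest.

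The adhesion protein contactin 1 (Cntn1) was at 1310.1, 499.4 and 5259.9 against 11237.2, 31046.6 and 26678.3 (3.80, limma adjusted p = 0.0766), and the small heat shock protein Cryab at 518.8, 1927.6 and 3780.6 against 14602.0, 17263.1 and 20776.6 (3.48, limma adjusted p = 0.150). For Cryab the spread lay in the Nf1-null arrays. Ugt8a, the enzyme of myelin galactolipids (3.36, limma adjusted p = 0.219), Igfbp5 (-3.43, limma adjusted p = 0.134) and the glutamine transporter Slc38a1 (-3.35, limma adjusted p = 0.108) complete the 8 of this kind.

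The 12 genes with the widest range among the glioma arrays fell into 2 patterns, both setting array 1 apart. Higher on arrays 2 and 3 were Mbp, Apod, Lgals3 (193.8, 1309.5 and 4397.4), the synaptotagmin Syt4 (398.0, 3220.1 and 5489.8) and the basement membrane protein Frem1 (494.0, 2650.5 and 4262.7). Higher on array 1 were Pla2g7 (14123.3, 1032.4 and 613.4), Igfbp5 (7864.5, 621.7 and 527.7), Fgfr3 (4902.5, 620.8 and 367.3), Slc38a1 (6015.6, 742.4 and 528.2), Itga6 (8393.0, 1267.3 and 820.0), Smoc1 (5416.1, 807.4 and 542.1) and Rfx4. Of this second set, Fgfr3 marks astrocytes and their precursors, and its array 1 value lay within the 4591.9 to 8161.0 of Nf1-null NSC, as did those of Pla2g7 (2183.7 to 20690.6) and Smoc1 (3766.7 to 14021.4). In all 12 genes array 2 lay between arrays 1 and 3. These genes were chosen for this spread, so it is given as a description.

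**Figure D5:**
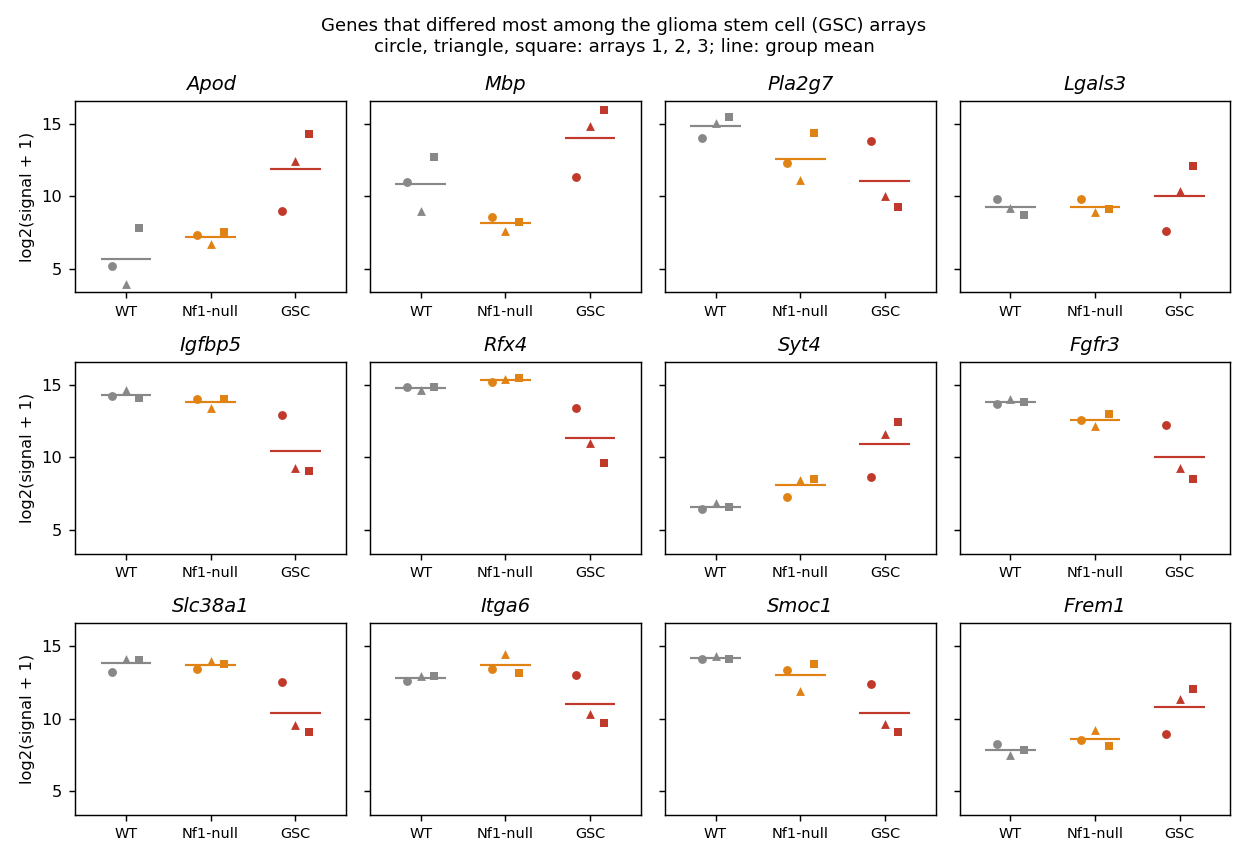
Log2(signal + 1) of the 12 genes with the widest range over the glioma stem cell (GSC) arrays, in wild-type NSC (grey), Nf1-null NSC (orange) and glioma stem cells (red), with circle, triangle and square for arrays 1, 2 and 3 and a line at each group mean. The circle of glioma array 1 stands apart from arrays 2 and 3 in every panel, from Apod (501.7 against 5458.9 and 19746.4) to Itga6 (8393.0 against 1267.3 and 820.0).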

How the data were processed

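RNA was hybridised to Affymetrix Mouse Genome 430 2.0 arrays. The authors deposited 1 linear intensity per probe set and array. The summarising tool and its scaling are not given in the sources used here. The values have a 2% trimmed mean of 1500 on each array. Of 45101 probe sets, 64 controls were left out, and the 34945 with exactly 1 gene symbol in the platform annotation were kept, leaving out 932 with several symbols and 9160 with none. Symbols were checked against RefSeq (34741 matched, 0 changed). The probe set with the highest mean over the 9 arrays stood for each of 18193 genes. Values were used as log2(signal + 1). One mean per group was fitted over all 9 arrays with limma 3.58.1 (R 4.3.3; lmFit and eBayes, 6 residual degrees of freedom), so the wild-type arrays add to the estimate of spread. Arrays were grouped by their titles. The number of arrays limits the precision.

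The comparison and the 43 gene lists (1172 genes measured) were chosen with earlier results of these data known. Named genes are the 15 largest called rises and falls, the called members of each list (or up to 3 with the smallest p), 12 genes uneven among glioma arrays, and the 8 largest differences that missed the threshold with no overlap and a mean of at least 4000. Clone names, Y-linked genes and small RNAs were left out of these rankings. Of the 84 called genes named, 65 have other probe sets. Of those 121 probe sets, 85 moved the same way at an unadjusted p under 0.05 and 14 had the opposite sign, 0 of them at that level. Alternatives covered the scaling, pseudocount, filter, probe set rule, spread model, replicate block and each array left out. Tables and figures used Python 3.11.15, pandas 2.3.3 and matplotlib 3.10.9.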

Additional observations from a re-analysis of the deposited data

How the results depend on the processing

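Against 122 genes higher and 197 lower, quantile normalization gave 123 and 195, arrays shifted to 1 median 126 and 182, and a pseudocount of 16 gave 151 and 237. Fewer genes passed with the mean of all probe sets (54 and 95), an ordinary linear model (45 and 93) and the 6 arrays compared alone (7 and 22). More passed among the genes brighter than the median gene (264 and 343), without the dimmest 25% (215 and 321), with a mean-variance trend (311 and 426), with trend and robust moderation (325 and 448) and with array weights (433 and 540). Leaving out 1 array gave 17 to 326 higher and 41 to 395 lower genes. With the replicate block, 78 higher and 115 lower genes passed, 144 of them among the 319. Of the 84 called genes named, 46 passed with the block. The 38 that did not, with limma adjusted p from 0.0508 to 0.109, were Abcb1b, Acta2, Adamts5, B2m, Brinp3, Cdh10, Col5a2, Emcn, Emx2, Ereg, Fos, Fstl1, Gal, Gja1, Grb10, Grik1, Hopx, Hoxa3, Kcna2, Kcnf1, Kcnip3, Lhfpl3, Mmp16, Nfasc, Opalin, Paqr7, Pcdh11x, Pcdh15, Pcdh17, Pcdh7, Pdgfa, Ppp1r14a, Rbfox1, Robo3, Scn8a, Slc6a6, Tubb3 and Wnt5a. Same-numbered glioma and Nf1-null arrays deviated from their group means with correlations of 0.08, 0.04 and 0.01 over all genes and 0.30, 0.12 and 0.11 over the genes brighter than the median. Of the 6 arrays, 5 correlated best with the array of their own number over all genes and 6 over the brighter genes, a hint from the data that same-numbered arrays may share something. The numbers were not taken as pairs in the main result, because the cells came from different mice, no label says what a number marks, and the correlations over all genes were low, so both counts are given.

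Of the 84 called genes named, 12 passed in every alternative that tested them, 20 or 21 for each gene: Aldh1l1, Car6, Car8, Cybrd1, Gbp2, Igf1, Mmp14, Neurod1, Otx2, Tgfb2, Tgfb3 and Zcchc12. The other 72 lost the call in at least 1, while 21 kept it in all 9 leave-outs. None changed direction in an alternative, which most of the alternatives could not bring about. The cause of these changes was not tested. The median SE of a log2 difference was 0.20 in genes brighter than the median gene and 0.60 in dimmer ones, so differences of dim genes are the less certain.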
